A study of Mus musculus with 28 samples.

Results

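Exonic regions away from promoters are stretches of open chromatin whose point of highest signal, the summit, lies inside an exon of a protein-coding gene and more than 1 kb from every annotated transcription start site (TSS). They were taken from 2 ATAC-seq peak lists of purified Müller cells, 1 list for control mice and 1 for db/db mice, on chromosomes 1 to 19. Overlapping rows of a list were merged to 1 region with the summit of its strongest row, and regions made of more than 3 rows were left out. In the control list 1164 of 45198 merged regions met these criteria, which is 2.58% of all regions and 3.98% of those more than 1 kb from a TSS with at most 3 rows. In the db/db list 1798 of 63598 did, which is 2.83% and 4.01%. A further 40 control and 48 db/db regions had an exonic summit more than 1 kb from a TSS and over 3 rows.

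ATAC-seq reads out where a transposase can insert into chromatin. Müller cells, the main glia of the retina, were isolated from mice of both sexes at 6 months by magnetic sorting as the CD29-positive fraction, after microglia had been removed with CD11b and vascular cells with CD31. The db/db mice are homozygous for the Lepr db allele of the leptin receptor and model type 2 diabetes; they were bred from BKS.Cg-Dock7m+/+Leprdb/J and BKS-Leprdb/db/JOrlRj stock. The labels call the controls WT, and the study's methods describe wild type and db/+ animals as controls. Each genotype has 2 biological replicates in the labels, and a list attached to replicate 1 was used here, so that n = 1 list per genotype. There is therefore no replicate error between genotypes, no test was made, and the intervals given are 95% intervals that cover counting error only. Read depth is unknown, and the peak caller and any pooling of replicates are not given in the sources used here. CD29 also takes in the few retinal astrocytes. A region at the promoter was listed for 12 of 12 Müller glia markers in both lists, for 11 of 12 rod markers in the control list and for 7 of 12 in the db/db list. A promoter region was also listed in both lists for 2 of 10 microglia, 5 of 10 vascular and 5 of 6 astrocyte genes. For cone genes the counts were 3 of 9 in the control and 2 of 9 in the db/db list, for bipolar genes 5 and 4 of 9, and for amacrine and ganglion cell genes 4 and 6 of 11.

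Most regulatory elements lie at promoters, in introns or between genes, but an exon can also hold a binding site for a transcription factor, so that one stretch of DNA serves both a transcript and its regulation. Coding exons carry the code for the protein, the 5' UTR lies upstream of it in the mRNA and the 3' UTR downstream. CTCF is a zinc finger protein that binds a long, well-defined site, shapes chromatin loops and is bound at many of the same places in different cell types.

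Short stretches around a binding string inside an exon are shown because the results on sequence turn on them. All are in mm10 (GRCm38), 30 bases long, written 5' to 3' on the strand that carries the string, and taken from GENCODE M21 transcripts. Capitals mark the matched string. The first set holds the core site of CTCF. It is shown in the coding-exon and 3' UTR members with the highest control signal among those that held it and were found in both lists. They are listed in that order, where all 30 bases were exonic. Stronger members without the site are left out.
Ifi47, coding exon, chr11:49095620-49095649, plus strand: gaatgctatCCTGGAGGTGGCtgtgatcgg
Dst, coding exon, chr1:34218497-34218526, plus strand: acaagacggCCAGCAGGTGGCgccagacac
Robo3, coding exon, chr9:37420916-37420945, plus strand: cttctgacgCCGGTAGAGGGCggcgcagaa
Tacr2, coding exon, chr10:62261294-62261323, minus strand: tcttcttggCCTGTAGATGGCgcaggttag
Rdh13, 3' UTR, chr7:4427341-4427370, minus strand: cctcatcatCCTCTAGGTGGCaatgttagt
Cryzl1, 3' UTR, chr16:91694873-91694902, plus strand: gtcagccgtCCACTAGAGGGCagccatgca
Slc4a3, 3' UTR, chr1:75559667-75559696, minus strand: caaaaaccaCCACCAGAGGGCtacacacgg
Slc43a2, 3' UTR, chr11:75573545-75573574, minus strand: gtgagtctgCCAGCAGGGGGCactgtgatc

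The second set holds the string GGATTA, which homeodomain factors of the CRX and OTX family bind. It shows members found in the control list only that held the string in their exonic bases, in order of signal. Nsun4 and Inpp5d had a higher signal than Pklr and Nim1k but did not hold it there, and are left out. Pklr was among 4 control-only members in the fifth decile of signal within the list. The others of these also had a higher signal than Nim1k and are not shown.
Gtf2e1, 3' UTR, chr16:37510999-37511028, plus strand: ctttggttggcaGGATTAtaagcaattgtc
6430550D23Rik, 3' UTR, chr2:155973552-155973581, plus strand: agagtcctcagtGGATTAggcagggctgct
Nktr, exon of a transcript without coding sequence there, chr9:121742066-121742095, minus strand: ggtgagggatgtGGATTAcctgtcccttaa
Pklr, 3' UTR, chr3:89145770-89145799, minus strand: ccagctgggctgGGATTAaaggctcagggc
Nim1k, 5' UTR, chr13:119728410-119728439, plus strand: gcagccacagaaGGATTAagtctctccaca

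The third set holds the site of NRF1, a factor of housekeeping and mitochondrial genes, written GCGCNTGCGC with N for any base, in coding exons.
Sptbn4, coding exon, chr7:27361589-27361618, plus strand: cgtcgagctcGCGCTTGCGCagcaggaagc
Scnn1a, coding exon, chr6:125331057-125331086, plus strand: accccctgcaGCGCCTGCGCacaccacctc
Apold1, coding exon, chr6:134983676-134983705, plus strand: gccaagtgctGCGCCTGCGCgaagtggccc

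The first question was where in the exons the members lay. Coding exons held 450 of 1164 control members (38.7%, interval 35.9 to 41.5) and 684 of 1798 db/db members (38%, 35.8 to 40.3). The 3' UTR held 503 (43.2%) and 787 (43.8%), the largest class in both lists. The 5' UTR held 20 (1.72%) and 30 (1.67%). The remaining 191 (16.4%) and 297 (16.5%) lay in exons of transcripts that have no coding sequence there, such as retained introns, and are called other exons below. The class shares of the lists lay within each other's intervals.

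Exons are of unequal length, so the counts were set against the exonic sequence more than 1 kb from a TSS, 65.8 Mb in all. Per Mb, the control list had 18.7 members in coding exons (17.0 to 20.5), 17.0 in 3' UTRs (15.5 to 18.5) and 16.7 in other exons (14.4 to 19.3). Intronic regions, at 17.0 per Mb (16.7 to 17.3), were about as dense as exonic ones, whereas intergenic regions were sparser at 10.3 per Mb (10.1 to 10.4). The db/db list had 28.4 per Mb in coding exons (26.4 to 30.7), 26.5 in 3' UTRs (24.7 to 28.4) and 26.0 in other exons (23.1 to 29.2). Its intronic regions stood at 26.6 per Mb and its intergenic regions at 15.4. The coding-exon density was 1.10 times that of the 3' UTR in the control list (0.972 to 1.25) and 1.07 times in the db/db list (0.968 to 1.19), and both intervals include equal density. The 5' UTR was the densest class, at 1.69 times the coding-exon density (1.08 to 2.65) and 1.67 times (1.16 to 2.41), but it rested on few regions. These 5' UTR members also lay nearer to a TSS, with a median distance of 2115 bp in the control list against 5103 bp for coding exons.

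**Figure D1:**
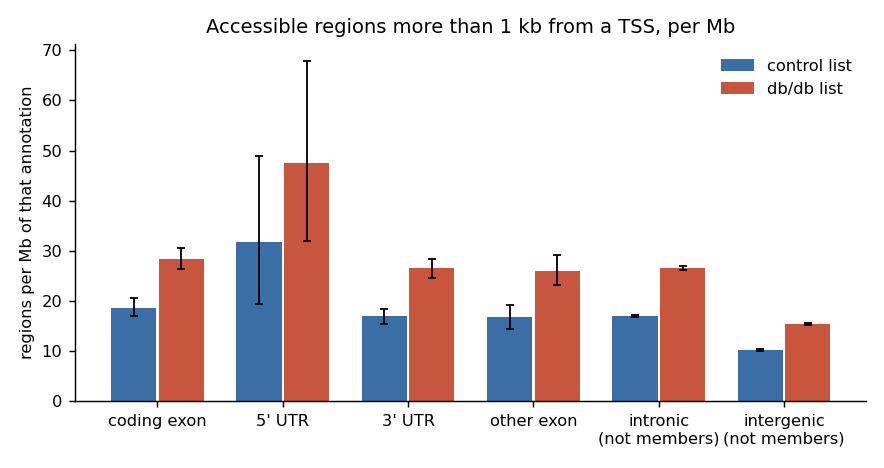
Regions more than 1 kb from a TSS per Mb of the annotation they lie in, for the control list (blue) and the db/db list (red). Bars show the density and lines its exact 95% Poisson interval; intronic and intergenic regions are shown for comparison, and all exon classes stand above the intergenic bars of 10.3 and 15.4 per Mb.

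The regions were somewhat narrower than others of their lists and often lay wholly within the exon. Median width was 599 bp in the control list, from 215 to 1822 bp, and 547 bp in the db/db list, from 180 to 1713 bp. Intronic regions had medians of 642 bp and 586 bp, and intergenic regions of 648 bp and 586 bp. Regions within 1 kb of a TSS, with any number of rows, had 915 bp and 882 bp. All bases were exonic in 637 control members (54.7%) and 1004 db/db members (55.8%). Coding exons are short, and there only 22.7% of members lay wholly inside exons in each list, with a median exonic share of 63.6% and 63.0%. In the 3' UTR 78.1% and 80.8% were wholly exonic. A region reached to within 1 kb of a TSS, although its summit did not, in 79 control and 120 db/db members. The nearest member summit was 1003 bp from a TSS in the control list and 1001 bp in the db/db list. The 24 control members up to 100 bp beyond the limit had a median signal of 8.59, and the 33 exonic regions up to 100 bp short of it had 9.77; in the db/db list 42 and 56 such regions had 7.05 and 7.83.

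The next question was whether the members followed a place along the gene, counted from 0 at the gene start to 1 at its end. The median position was 0.873 in the control list (0.855 to 0.890) and 0.874 in the db/db list (0.859 to 0.888). The last decile of the gene held 525 control members (45.1%) and 811 db/db members (45.1%), where 41.3% of the eligible exonic sequence also lies. Set against sequence, all members together had 19.1 per Mb there in the control list (17.5 to 20.8) against 13.2 in the sixth decile (10.0 to 17.1), but 19.9 in both the first (14.1 to 27.2) and the ninth (17.1 to 23.0). In the db/db list the first and the last decile both had 29.5. Coding exons had 25.1 members per Mb in the last decile (131 members) against 18.5 in the first (12) and 13.5 in the fifth (27) in the control list. In the db/db list they had 35.7 (186 members) against 24.6 (16) and 25.0 (50). No intervals were computed for these densities by class, and those of the first decile rest on few members. In the 3' UTR the last decile, at 17.7 and 27.4 per Mb, was not denser than the ninth, at 18.6 and 29.5. Last exons of the principal transcript held 50.9% of control members (48.0 to 53.7) and 49.7% of db/db members (47.4 to 52.0), above their 44.9% of eligible exonic sequence. Internal exons held 24.2% and 24.6%, with 27.4% of the sequence. The median distance to the nearest TSS was 5148 bp and 5187 bp. A 3' UTR member lay at a median of 1148 bp and 1199 bp from the end of its gene.

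**Figure D2:**
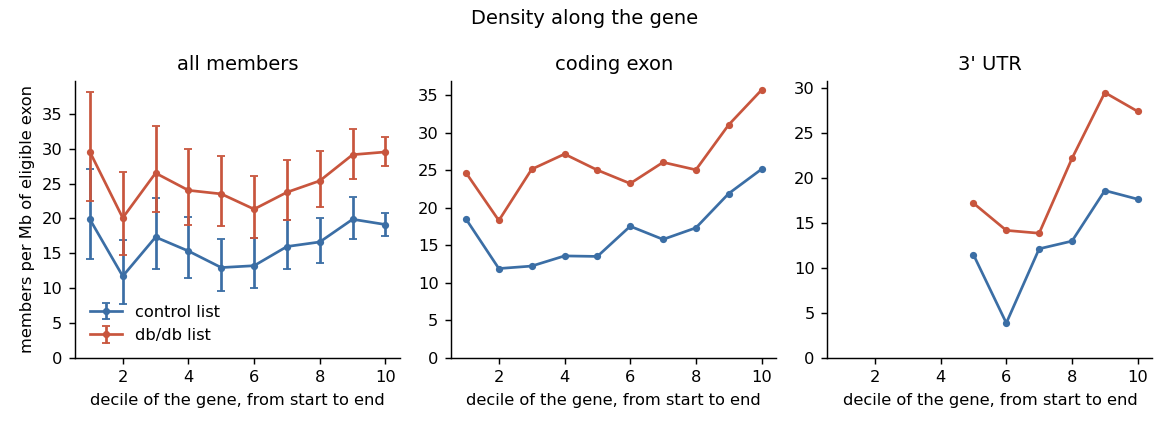
Members per Mb of eligible exon in each decile of the gene, from its start (1) to its end (10), for all members with exact 95% Poisson intervals (left), coding exons (middle) and 3' UTRs (right; deciles with under 0.5 Mb of 3' UTR are not drawn). Coding-exon density was highest in the last decile in both lists, at 25.1 and 35.7 per Mb.

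Signal is the deposited value of a peak, described below as a ratio of peak to background. It was compared within a list only, as a value or as a percentile among all 45198 or 63598 regions. Where signals of both lists stand side by side, control comes first, and no difference is read from them, since their scaling is unknown. The members had a median signal of 9.45 in the control list, at the percentile 40.6, and of 7.76 in the db/db list, at 42.7. They were as strong as intronic regions (percentiles 39.6 and 40.4), weaker than intergenic ones (48.5 and 48.7) and much weaker than regions within 1 kb of a TSS (68.2 and 69.0). The classes hardly differed among themselves, with medians of 9.43 in coding exons, 9.06 in 5' UTRs, 9.61 in 3' UTRs and 9.29 in other exons of the control list, and of 7.74, 7.79, 7.94 and 7.37 in the db/db list. Among the strongest 10% of each list stood 46 control members (3.95%, 2.98 to 5.23) and 94 db/db members (5.23%, 4.29 to 6.36), against 4.41% and 5.68% of the other regions more than 1 kb from a TSS. A single member reached the top 1% in each list, and it was the same region, in Sf3b5.

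Sf3b5, which encodes a small subunit of the splicing factor SF3B, is a gene of a single exon. Its member on chr10:13008107-13008811 lay in the annotated 5' UTR, with the control summit 3037 bp from the nearest TSS and at 0.791 along the gene. Its signal was 31.1 in the control list and 29.9 in the db/db list, the highest of all members in both. Next among the 5' UTR members stood Ethe1, a mitochondrial enzyme of sulfide breakdown, with 25.3 in the control list and 23.1 in the db/db list. Nup160, part of the nuclear pore, had 17.9 in the control list and 17.9 in the db/db list. Cd47, a cell surface signal against phagocytosis, had 16.8 and 19.3. Cbln4, a secreted synaptic organiser, had 16.3 and 20.6. The 5 leading genes were thus the same in both lists, with Cbln4 ranked above Cd47 and Nup160 in the db/db list.

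In coding exons the control list was led by 4930564D02Rik with a signal of 25.2, followed by Sh2d3c, an adaptor protein, with 24.3 and Sptbn4, a spectrin of the axon initial segment, with 23.2. Itgb7, an integrin of lymphocytes, and Ifi47, an interferon-inducible GTPase, came next with 22.5 each. Ifi47 led the db/db list with 23.4, followed by 4930564D02Rik with 23.1, Bcat2, the mitochondrial aminotransferase of branched-chain amino acids, with 22.4, Itgb7 with 22.4 and Sh2d3c with 22.3. All of these regions were found in both lists. The Sptbn4 member had 20.4 in the db/db list. Several of these regions extended into introns, since exons made up 34.3% of the Sh2d3c region and 47.0% of the Sptbn4 region in the control list.

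The leading 3' UTR members were again the same 5 genes in both lists. Ttc21b, a component of intraflagellar transport, had a signal of 25.0 in the control list and 23.2 in the db/db list. St3gal2, a sialyltransferase, had 23.9 and 22.6. Lars2, the mitochondrial leucyl-tRNA synthetase, had 23.9 in both. Rdh13, a mitochondrial retinol dehydrogenase, had 22.8 and 21.7. Cryzl1, a quinone reductase-like protein, had 22.6 and 22.0. The latter pair carried the CTCF core sites shown above, 79.5 bp and 27.5 bp from the summit. Apart from Cryzl1, where the exon is not part of the principal transcript, each of these lay in the last exon.

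Other exons were led in the control list by Fignl1, an ATPase of DNA repair, with 22.7, Chid1 with 21.1, Slc13a1, a sulfate transporter, with 18.7, Sfxn2, a mitochondrial carrier, with 18.7, and Sdk2, an adhesion protein that pairs retinal synaptic partners, with 18.7. Fignl1 also led the db/db list, with 22.1, followed by Ccm2, a gene of cerebral cavernous malformation, with 19.98, Camk2d, a calcium-dependent kinase, with 19.8, Crlf3 with 18.7 and Slc6a17, a transporter of synaptic vesicles, with 18.7. None of these exons belongs to the principal transcript of its gene.

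Members were spread thinly over genes. Of 19788 protein-coding genes with exonic sequence more than 1 kb from a TSS, 1097 (5.54%) had a member in the control list and 1632 (8.25%) in the db/db list. The lists shared 1017 genes, which is 92.7% of the control genes and 62.3% of the db/db genes. In the control list 1033 genes had 1 member, 61 had 2, and Caskin1, Dennd1a and Sdk2 had 3 each. Among the db/db genes 142 had 2 members and 10 had 3 or more. Notch1, the receptor of a signalling pathway used in retinal glia, had the most with 5, of which 1 lay in a coding exon, 1 in the 3' UTR and 3 in other exons, and all were weak, with signals from 3.84 to 5.73. Jarid2, a partner of the Polycomb complex, and Sdk2 followed with 4 members each. Sdk2 members spanned signals from 4.22 to 18.5, and 3 of the 4 Jarid2 members were found in the db/db list only.

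Genes with a member more often also had a region within 1 kb of one of their own TSSs. In the control list this held for 849 of 1097 genes (77.4%, 74.8 to 79.8) against 11255 of 18691 other genes (60.2%), and in the db/db list for 1319 of 1632 (80.8%, 78.8 to 82.7) against 62.9%. Genes with a member also carried more eligible exonic sequence, with a median of 4456 bases against 2411 in the control list. Within genes of over 3000 and up to 6000 such bases the shares were 82.5% (78.5 to 85.8) against 72.1% in the control list and 84.6% (81.5 to 87.3) against 75.2% in the db/db list. Within genes of over 1000 and up to 3000 bases they were 62.7% (57.0 to 68.1) against 54.5%, and 66.0% (61.4 to 70.4) against 57.6%.

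The lists differed most in which members had a counterpart. A region was called found in 1 list only when no region of the other list overlapped it by at least 1 bp. In the control list 57 of 1164 members were found there only (4.90%, 3.80 to 6.29), beside 4.07% of all regions and 5.25% of the other regions more than 1 kb from a TSS. Among db/db members 686 of 1798 were (38.2%, 35.9 to 40.4), beside 31.4% of all regions and 38.3% of the other regions more than 1 kb from a TSS. The shares of the members thus lay at those of other regions away from a TSS. The db/db list is the longer, and when both lists were cut to 45198 regions by their deposited −log10 p, the shares were 14.3% of control members (12.4 to 16.4) and 18.3% of db/db members (16.2 to 20.6), beside 16.7% and 17.0% of all regions more than 1 kb from a TSS. The coding exon, 5' UTR, 3' UTR and other exon classes had one-list shares of 4.44%, 5.00%, 5.37% and 4.71% in the control list and of 38%, 36.7%, 38.6% and 37.4% in the db/db list.

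One-list members were weak. Their median signal was 7.34 against 9.61 for members with a counterpart in the control list, and 5.96 against 9.54 in the db/db list. Of the db/db members, 172 of 237 members in the lowest decile of signal were found there only (72.6%, 66.6 to 77.9), 68 of 205 in the fifth decile (33.2%, 27.1 to 39.9) and 0 of 94 in the highest, where the interval reaches 3.93%. The other regions away from a TSS gave 74.4%, 37.7% and 0.818% in the same deciles.

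**Figure D3:**
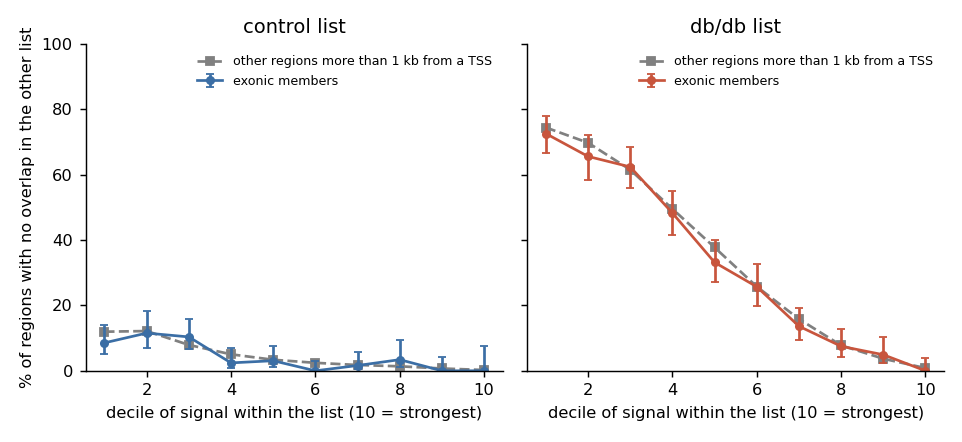
Percentage of regions with no overlap in the other list, by decile of signal within the list (1 weakest, 10 strongest), for exonic members (circles, with 95% Wilson intervals) and for the other regions more than 1 kb from a TSS (grey squares). In the db/db list the member share falls from 72.6% in the lowest decile to 0 in the highest, along the grey line.

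The strongest members found in the control list only were in Gtf2e1, a subunit of the basal factor TFIIE, with a signal of 15.7, in 6430550D23Rik with 13.9 and in Nktr, a cyclophilin-related protein, with 13.8. All of these carried the string GGATTA shown above, at 1.5 bp, 19.5 bp and 21.5 bp from the summit. Nsun4, a mitochondrial RNA methyltransferase, with 12.7 and Inpp5d, a phosphatase of blood cells, with 12.0 followed. The strongest found in the db/db list only were in coding exons of Ern1, the sensor IRE1 of the unfolded protein response, with 15.6, of Tmc5 with 14.9 and of Sptbn4 with 14.6. Vps13d, a lipid transfer protein, with 14.3 and Txndc9 with 13.7 followed in 3' UTRs. The Ern1 region stood at the percentile 87.4 of its list.

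Members with a counterpart stayed in place. Of 1107 such control members, 1059 overlapped a db/db member, 1050 of these in the same exon class, 29 overlapped a region whose summit lay outside an exon, 17 a region of over 3 rows and 2 a region with its summit within 1 kb of a TSS. For the 1049 members that paired one to one, summits differed by a median of 8 bp, and 87.6% lay within 25 bp of each other. To compare ranks, each list's signal was ranked as a percentile among the same paired regions. Across the 1049 members the ranks of the lists had a Spearman correlation of 0.915, given as a description, since the members share their libraries. The rank in db/db minus that in control had a median of 0.91 percentile points (0.35 to 1.51), with quartiles at −4.36 and 7.21, against 0.86 for the other paired regions more than 1 kb from a TSS. The median was 0.60 in coding exons, 1.31 in 3' UTRs and 0.76 in other exons, and 4.50 in the 17 members of the 5' UTR, of which 13 ranked higher in db/db.

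The members that ranked furthest above their control rank in db/db were in Heatr5b, whose coding-exon member went from the percentile 16.1 to 64.5, in the 3' UTR of Fbxl20, an F-box protein, from 16.1 to 55.4, and in a coding exon of Capn11, a calpain protease, from 32.1 to 67.9. In the 3' UTRs of Atp9b and St6galnac5, a sialyltransferase, members went from 12.4 to 48.1 and from 49.1 to 83.7. Those furthest below it were in the 3' UTR of Knop1, from 79.8 to 23.6, in an other exon of Golga7, from 60.3 to 5.09, and in the 3' UTR of Pttg1ip, from 69.0 to 22.2. Spcs2, a subunit of the signal peptidase, went from 62.9 to 27.2 and Qsox1, a sulfhydryl oxidase, from 42.7 to 7.06. These 10 were picked as the extremes of 1049 members and have no replicate, so they describe these lists.

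**Figure D4:**
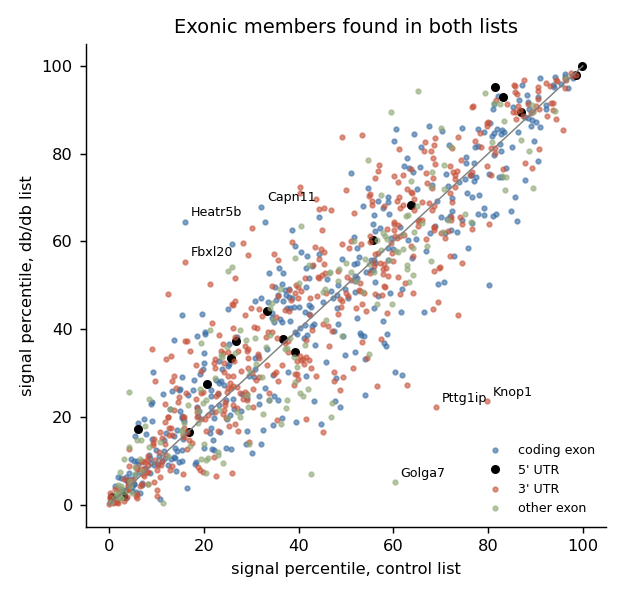
Signal percentile of the 1049 one-to-one paired members in the control list (horizontal) and the db/db list (vertical), ranked among the same paired regions, coloured by exon class, with the line of equal rank. Most points lie near the line, with Heatr5b, Fbxl20 and Capn11 above it and Knop1, Golga7 and Pttg1ip below.

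The sequence under the summits differed from that of other exons in GC content and in the CTCF core site. Windows of 201 bases centred on the summit and wholly within exons could be read for 891 control and 1348 db/db members and were compared with 228681 consecutive windows of the same length over all eligible exonic sequence, with both strands searched. The median GC content was 54.7% in both lists against 44.8% in exon windows. The CTCF core site was present in 179 control windows (20.1%, 17.6 to 22.8) and 243 db/db windows (18%, 16.1 to 20.2), against 1.22% of exon windows, which is 16.4 and 14.7 times as often. In the 3' UTR the share was 23.9% and 21.1%, against 1.08% of 3' UTR windows. In coding exons it was 17.6% and 14.2%, against 1.42%. Members were richer in GC than exon windows, so the exon windows were also weighted by the members' GC content in 7 bins. Their share with the site was then 2.14% and 2.11%. Over all members the site was 9.40 and 8.56 times as frequent as that. Among windows of like GC content the gap remained: at 50 to 55% GC, 35 of 222 control windows (15.8%, 11.6 to 21.1) and 58 of 347 db/db windows (16.7%, 13.2 to 21.0) held the site against 1.64% of exon windows, and at 65% or more, 22 of 132 (16.7%, 11.3 to 23.9) and 25 of 182 (13.7%, 9.48 to 19.5) against 3.47%.

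The CTCF site also lay close to the summit, at a median of 25.5 bp in the control list and 26.5 bp in the db/db list, against 47.5 bp from the centre in exon windows. It was within 25 bp in 49.7% and 45.3% of windows that held it, against 25.8% of exon windows. It was on the strand of the gene in 87 of 179 control cases (48.6%, 41.4 to 55.9) and 115 of 243 db/db cases (47.3%, 41.1 to 53.6), so neither strand was preferred beyond counting error. Members with the site were narrower, with a median width of 468 bp against 635 bp in the control list and 432 bp against 583 bp in the db/db list, counted where at least 50 bases of the window were exonic. In that count the site was in 19.3% of db/db members with a counterpart (17.1 to 21.7) and in 95 of the 685 found in the db/db list only (13.9%, 11.5 to 16.7). The paired members with the site moved in rank by a median of −0.06 percentile points, with 107 higher and 107 lower in db/db.

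**Figure D5:**
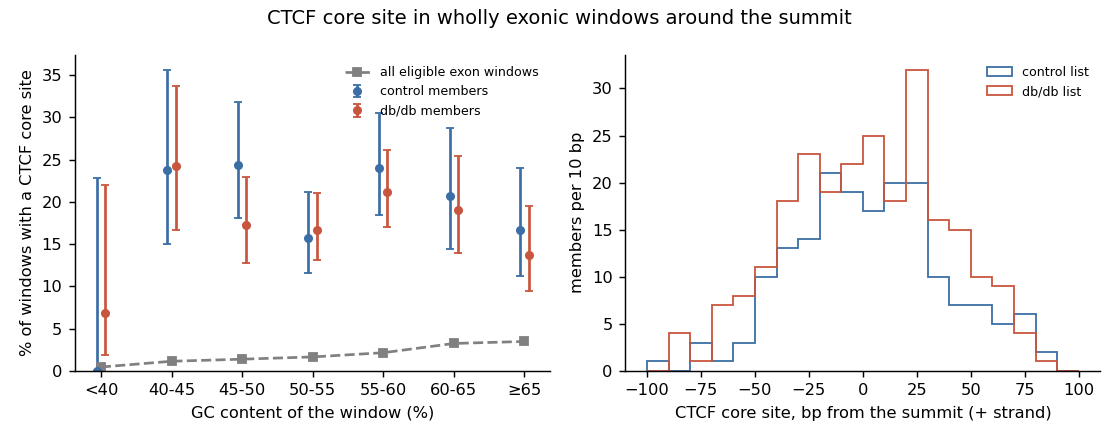
Left, percentage of wholly exonic 201-base windows with a CTCF core site by GC content, for members of each list (circles, 95% Wilson intervals) and for all eligible exon windows (grey squares). Right, number of members per 10 bp by the distance of the site's centre from the summit; the sites gather around 0, with medians of 25.5 and 26.5 bp in absolute distance.

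Some of the other strings were also read beside the share of exon windows of the members' own GC content. That is the share in each of 7 GC bins, weighted by the members in it. The highest bin, of 65% or more, has no upper limit. The NRF1 site was rare, in 1.91% of control windows (1.19 to 3.03) and 1.34% of db/db windows (0.846 to 2.10) against 0.0822% of exon windows, and against 0.387% and 0.365% at the same GC content. Unlike the CTCF site, it did not gather at the summit. Its median distance was 46.5 bp and 39.5 bp, against 45.5 bp from the centre in exon windows. It was within 25 bp in 17.6% and 11.1% of windows that held it, against 22.9% of exon windows. Of the 17 control and 18 db/db windows with it, 16 and 15 were in the highest bin, where GC content was matched only loosely. In that bin it was in 12.1% of control windows (7.60 to 18.8) and 8.24% of db/db windows (5.06 to 13.2), against 1.77% of exon windows. The NRF1 site stood in 15 of 216 coding-exon windows of the control list (6.94%, 4.25 to 11.1) and 14 of 303 of the db/db list (4.62%, 2.77 to 7.61), against 0.227% of coding-exon windows, whose median GC content was 52.2% where that of the members was 64.2% and 63.2%. Of the 21 paired members that held it in their exonic bases, 17 ranked lower in db/db and 4 higher, with a median change of −2.64 points. Of the 1028 without it, 451 ranked lower, with a median of 1.07. Among the strings whose paired members were compared in this way, NRF1 had the lowest median change. The members with and without the site were not matched for GC content or signal. In the control list 14 of the 22 members with the site were in the highest quartile of member signal. The 3 NRF1 members shown above were picked for their high control signal. Sptbn4 had 23.2 in the control list and 20.4 in the db/db list. Scnn1a, a subunit of the epithelial sodium channel, had 19.9 and 18.2, and Apold1, a gene of endothelial cells, had 18.6 and 16.9. The GC box GGGCGG, which SP factors bind, was in 13.4% (11.3 to 15.7) and 13.7% (11.9 to 15.6) of windows against 3.33%, but against 11.1% and 10.6% at the same GC content. It can overlap the end of a CTCF site and did so in 7 control and 12 db/db members. The full site of nuclear factor I, TGGCNNNNNGCCA, was in 1.68% (1.02 to 2.76) and 2.08% (1.44 to 2.99) against 0.420%, and against 0.782% and 0.774% at the same GC content. The SOX string ATTGTT was at 7.07% and 6.90% against 11.8% of exon windows, whose GC content was lower than that of the members. The full glucocorticoid receptor site was in 2 windows of each list, 0.224% and 0.148% against 0.139%. The control strings GAGTTA and ACGTGAC, chosen for comparison, were at 5.16% and 4.08% against 7.52%, and at 0.561% and 0.742% against 0.709%.

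The string GGATTA was in 14 of the 57 members found in the control list only (24.6%, 15.2 to 37.1), counted where at least 50 bases were exonic. It was in 35 of 1106 control members with a counterpart (3.16%, 2.28 to 4.37), in 7 of the 278 of these with a signal no higher than the median control-only member (2.52%, 1.22 to 5.11), and in 17 of 685 members found in the db/db list only (2.48%, 1.56 to 3.94). Over all members, wholly exonic windows held it in 4.602% (3.41 to 6.18) and 2.97% (2.19 to 4.02), against 6.75% of exon windows. At the same GC content the share of exon windows that held it was 4.17% and 4.21%. By class, 8 of 27 control-only members in the 3' UTR held it, 4 of 9 in other exons and 1 of 20 in coding exons. GAGTTA was in 4 of the 57. A match is a match of letters and does not show binding. Markers of rod photoreceptors, which express CRX, also differed in how many had a promoter region, 11 of 12 in the control list and 7 of 12 in the db/db list. Their summed signals were 80.3 and 42.7, beside 103.1 and 99.1 for the 12 Müller glia markers; the scaling of the lists is unknown, so these sums are given side by side only. Among the defining genes, Nrl had one in both lists, Pde6b, Pde6g, Cnga1 and Nr2e3 in the control list only and Pde6a in neither. The part of rod chromatin in the control-only members was not tested.

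Members at genes of the retina were few. Among 12 Müller glia markers, Rlbp1, the retinaldehyde carrier of these cells, had a coding-exon member in the db/db list only, with a signal of 2.83 at the percentile 0.794. No other marker of the list had one in either list. No gene of the cone, bipolar, amacrine and ganglion cell or microglia lists had a member. Of 10 vascular genes, Flt1 had a member in an other exon in both lists, 10.3 in control and 9.65 in db/db, and one in the 3' UTR in db/db only with 5.43. Cspg4, a pericyte gene, had 6.96 and 7.47, and Kdr, the main receptor of vascular endothelial growth factor, had a coding-exon member of 6.36 in the control list that overlapped a db/db region of 6.90. Gfap, an intermediate filament of astrocytes and reactive glia, had a coding-exon member of 8.61 in the db/db list only. Of 10 genes around the glucocorticoid receptor that the study discusses, Ptch1, a receptor of hedgehog signalling, had members of 5.67 and 4.91 in the db/db list only, and Abhd2 had 3' UTR members of 8.39 and 8.61 there that overlapped control regions. Nfix, a member of the nuclear factor I family, had a 3' UTR member of 3.05 in the db/db list only. Of all db/db members, 38.2% were found there only. In the signal deciles of the Rlbp1, Flt1, Ptch1 and Nfix members found only there, the share was 62.4% to 72.6%. In that of the Gfap member it was 25.7%. Of the 10 genes around the receptor, 2 had a db/db member (20%, 5.67 to 51.0), against 8.25% of all genes. A gain of open chromatin at the genes named here was not tested.

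Gene families differed in how often they held a member. Solute carriers, transporters of the cell surface and of organelles, had one in the control list at 32 of 328 genes (9.76%, 6.996 to 13.4) and the db/db list at 40 of 328 (12.2%, 9.08 to 16.2), against 5.54% and 8.25% of all genes. Per Mb of their eligible exons these were 27.4 and 35.7 members against 17.7 and 27.3. The strongest were in 3' UTRs of Slc17a5, a lysosomal sialic acid transporter, with 22.5 in the control list and 20.4 in the db/db list, of Slc4a3, an anion exchanger, with 19.95 and 21.2, and of Slc37a2, with 19.2 and 19.1, and of Slc43a2, an amino acid transporter, with 19.1 and 20.5. Zinc finger genes named Zfp had one at 11 of 384 (2.86%, 1.61 to 5.06) and 18 of 384 (4.69%, 2.99 to 7.29). Zfp697 was the strongest, with 20.7 and 20.9. Olfactory receptors, the odorant receptors of the nose, had one at 2 of 1043 genes (0.192%) and 5 of 1043 (0.479%). The Hox genes had none at 38 genes, and protocadherins had 0 and 1 of 67. Among potassium channel genes, the class that carries the main conductance of Müller cells, 5 of 89 (5.62%, 2.42 to 12.5) and 8 of 89 (8.99%, 4.63 to 16.7) had one, near the share of all genes. Kcnma1, the large-conductance channel, had a coding-exon member with 10.1 in the control list and 12.7 in the db/db list. Lhx2 and Six3, transcription factors of retinal progenitors and glia, had members of 6.44 and 9.38 in the control list and of 5.67 and 8.84 in the db/db list.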

How the data were processed

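Peaks came from omni-ATAC-seq of sorted Müller cells, 1 list per genotype. The deposited columns are, for every peak, the authors' score (540 to 1000), their signal (a ratio of peak to background, called signal here) and the −log10 of its p-value and of its q-value, the p column starting at 2.00. The peak caller, its threshold, what the values were scaled to and pooling are not given in the sources used here; mm10 is named in the submitters' processing notes. The study names csaw and monaLisa for its own analysis, which was not repeated. Read-level data and RNA-seq samples were not analysed here.

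Rows on chromosomes 1 to 19 were merged where they overlapped by 1 bp or more, keeping the row of highest signal. TSSs of all transcripts, exons and coding sequence came from GENCODE M21. A summit in exons of several kinds was classed as coding exon, then 5' UTR, then 3' UTR, then other exon. Positions and last exons refer to the gene and to its principal transcript (APPRIS, then the longest coding sequence). No genome sequence was used: bases were rebuilt from 134417 annotated transcripts, with 0 conflicts, so that strings were searched in exonic bases only. Shares have Wilson intervals and densities exact Poisson intervals, at 95%; medians have order-statistic intervals. Named genes are the 5 strongest members per list and class, the 5 strongest found in 1 list only, the 5 largest rises and falls in rank, the genes with most members (ties beyond the leading ones only counted), and genes of the listed markers and families; of the families, examples were chosen after their values were seen. The members, lists and strings were chosen with earlier results of these data known. Ranking among paired regions and the restriction to wholly exonic windows were chosen after seeing the data. A result at a listed gene is not reported here. The steps were tested on planted regions, overlaps and strings. Python 3.11.15, numpy 2.4.6, scipy 1.17.1, pandas 2.3.3 and matplotlib 3.10.9 were used.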

Additional observations from a re-analysis of the deposited data

How the results depend on the processing

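No paired analysis was possible because 1 peak list per genotype was used, so that replicate numbers pair nothing and no replicate could be left out. Of 133 values over 19 results, 112 stayed within the interval of the value reported (for counts, within 1.5 times), 21 did not, and 0 changed sign. Regions of 1 row alone gave 740 control members, and a one-list share of 42.2% in the db/db list. Lists cut to the same number of regions gave one-list shares of 14.3% for control and 18.3% for db/db, which bears on any reading of the longer db/db list. With GENCODE basic transcripts, coding exons held 46.3% and 45.9% and 3' UTRs 51.6% and 52.1%, with median positions of 0.909 and 0.907; fewer transcripts leave fewer other exons by construction. With UTRs ranked before coding exons, coding exons held 32.9% and 32.5% and 3' UTRs 48.5% and 49.0%. More than 2 kb from a TSS, 3' UTRs held 47.0% in both lists, and median positions were 0.895 and 0.897. Windows of 50 bp to each side held a CTCF site in 16.5% and 13.8%. Ranked among all regions of a list, the median change in rank was 10.7 points, since the db/db list holds more weak regions.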
